A study of Mus musculus with 11 samples.

Results

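The genes described here are stimulated by type I interferon, and their levels were compared in CD8 T cells recovered from mouse tumors. They were chosen as a list of 36 genes. For each gene the microarray row that names it alone and has the highest mean was taken, and it was kept where its mean log2 signal reached 4.33, the 25th percentile of named genes. Of the 36, 34 had such a row and all 34 reached the filter value, among 15194 genes tested in all. Eif2ak2, the kinase PKR, shares its only row with other genes, and Ifi44 is unnamed here, so neither was measured. Oasl2 lay closest above the filter value, with a mean of 4.62, and no listed gene lay below it.

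Donors of the T cells were T cell receptor transgenic mice whose cells bear Thy1.2, and donors and hosts either carried galectin-3 (wild type, WT) or lacked it (knockout, KO); it is a lectin encoded by Lgals3. The reference group held WT T cells recovered from WT hosts (n = 4). The host-KO group held WT T cells recovered from hosts without galectin-3 (n = 3), and in the double-KO group both the T cells and the hosts lacked it (n = 4). The design names 1 more replicate of the host-KO group, which was not analysed here, and it pairs no KO T cells with WT hosts, so loss in the T cell was seen only in KO hosts. All hosts carried NT2.5 mammary tumors and were given cyclophosphamide at 100 mg/kg on day 8, a whole-cell vaccine that secretes GM-CSF on day 9 and the T cells on day 10. Tumors were taken 5 days later and the transferred cells sorted on Thy1.2. The replicates are described as biological, but the labels do not say whether an array stands for 1 mouse or for several.

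Type I interferons are cytokines that nearly every cell can sense. They bind a receptor of the chains IFNAR1 and IFNAR2, whose kinases activate transcription factors that include STAT2, which acts with IRF9 in the complex ISGF3. This complex binds the interferon-stimulated response element (ISRE) in promoters of antiviral genes, many of which interferon gamma can also induce. In tumors type I interferon aids the priming of CD8 T cells, while lasting exposure is associated with T cell dysfunction.

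The promoters of these genes were searched for the letters of the element that ISGF3 is known to bind. RefSeq promoter windows on GRCm38.p6, each of 300 bases from 250 before to 50 after the annotated start, were found for 28 of the 36 genes. The core of the ISRE, GAAA and GAAA with any 2 bases between them, was searched on both strands, and on the opposite strand it reads TTTC and TTTC with 2 bases between them. It occurred in 11 of the 28 genes (39.3%) and in 3.99% of all 27025 genes with a window. The gamma-activated site, TTC and GAA with any 3 bases between them, was searched as well. It occurred in 8 of the 28 genes (28.6%) and in 9.55% of all genes with a window. The matches named from here on are those of the ISRE core. A match describes the letters and is not a measured binding site. The matches of 7 of these 11 genes, picked by hand as examples, are shown here with their neighbouring bases. Capitals mark the ISRE core, and each sequence reads 5′ to 3′ along the strand of its gene.
Isg15, chr4:156200855-156200916, minus strand: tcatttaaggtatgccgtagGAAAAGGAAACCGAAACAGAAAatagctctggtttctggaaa
Bst2, chr8:71537567-71537622, minus strand: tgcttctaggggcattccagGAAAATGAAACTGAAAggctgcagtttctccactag
Ifit1, chr19:34640769-34640829, plus strand: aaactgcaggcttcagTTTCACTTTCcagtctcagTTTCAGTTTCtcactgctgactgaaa
Ifit3, chr19:34583361-34583428, plus strand: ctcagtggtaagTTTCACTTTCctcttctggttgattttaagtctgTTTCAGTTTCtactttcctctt
Stat2, chr10:128270256-128270305, plus strand: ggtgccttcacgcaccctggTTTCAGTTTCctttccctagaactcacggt
Rsad2, chr12:26456543-26456592, minus strand: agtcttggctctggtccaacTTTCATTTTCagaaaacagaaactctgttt
Trim21, chr7:102565448-102565475, minus strand: tgagagGAAACTGAAAGTGAAAtttgga
Isg15 held 3 matches that overlap one another, the first beginning 78 bases upstream of the start. Bst2 and Trim21 held 2 overlapping matches each. Those of Bst2 began 130 and 124 bases upstream, and those of Trim21 at bases 14 and 20 of the gene. Ifit1 and Ifit3 held 2 separate matches on the strand opposite to the gene. The remaining genes with a match were Ddx58, Ifih1, Eif2ak2 and Trim30a. The windows of Ifit2, Oasl2, Irf7, Irf9, Herc6 and Dtx3l did not contain these letters. No window was found for Usp18 and Parp14, so they were not searched.

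**Figure D1:**
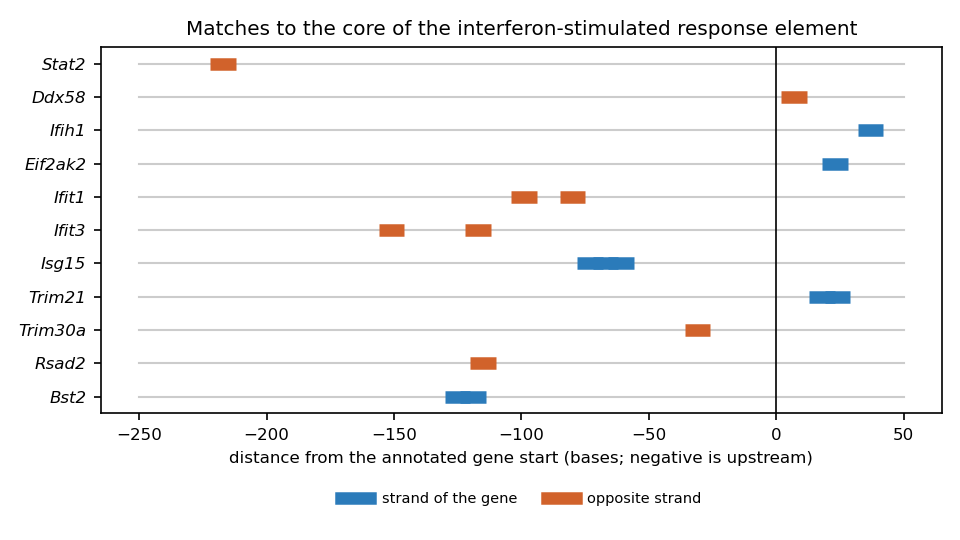
Positions of ISRE core matches in the promoter windows of 11 listed genes, in bases from the annotated gene start, with the first window shown for genes with several. Bars are the matched 10 bases on the strand of the gene (blue) or on the opposite strand (orange), and overlapping bars merge. Matches of Isg15, Ifit1, Ifit3, Bst2 and Rsad2 lie between 156 and 66 bases upstream at their first base.

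All values are the deposited log2 signals, on which a difference of 1 is a doubling. Lgals3, the gene deleted in KO cells, was between 8.02 and 8.49 in the 7 arrays of WT T cells and between 7.26 and 7.54 in the 4 arrays of KO T cells, without overlap. The sorted cells carried CD8 T cell transcripts in each group, and the mean log2 signal of 7 measured markers of 9 listed lay between 9.95 and 10.2 in every array. Markers of monocytes and macrophages, cells that the sort should leave out, were higher in KO hosts. Their 14 measured genes of 17 listed summed to log2 signals of 88.5 to 91.2 in the reference group, 94.4 to 101.3 in the host-KO group and 93.8 to 98.9 in the double-KO group. Among the 14, Msr1 and Adgre1 had reference means of 3.95 and 4.21, below the filter value of 4.33. They reached the filter only through their higher KO-host arrays, so their part in this sum and in the marker mean used below is a description. Other lists differed in part. The mean of 7 dendritic cell markers was 5.88 to 5.95 in the reference group and 6.04 to 6.30 in KO hosts, with the class II genes H2-Aa, H2-Ab1 and Cd74 higher in both KO-host groups, while Flt3 was at -0.11 and Cd209a at -0.33 in the host-KO group. The mean of 5 NK cell markers was 6.66 to 6.95 in the reference group and 6.96 to 7.38 in KO hosts. Tyrobp, which myeloid cells also express, was at 1.02 in the host-KO group and 0.94 in the double-KO group. In the same order Klre1 was at 0.44 and 0.81, Fcer1g at 0.12 and 0.43, Ncr1 at 0.12 and 0.21, and Eomes at -0.01 and 0.16. The mean of 8 neutrophil markers was 4.77 to 5.12 in WT T cells and 5.21 to 5.50 in KO T cells. Of these 8, S100a8, S100a9 and Csf3r were 2.72, 1.10 and 0.67 above the reference in the double-KO group, and the other 5 were below it. The part of the dendritic, NK and neutrophil lists in the results was not tested. No marker of these lists can be called absent, since these signals have no true 0. Arrays 1 and 4 of the reference group also had a narrower range of values: regressed on the average of all arrays, their slopes were 0.956 and 0.934, while the others had 0.989 to 1.04. Moves of a gene by over 1.5 times with either measure are given below.

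Most of these genes had higher means in KO hosts by a small amount, whichever T cells were transferred, and no single gene passed the test over all genes. The host-KO group had 28 of 34 genes above the reference mean, with a median log2 difference of 0.21, where 45.5% of all genes were above it and their median was -0.03. With the value range of each array as a covariate that host-KO median was 0.10, and without array 1 of the group it was 0.14. The double-KO group had 30 of 34 above it, with a median of 0.21, where 46.7% of all genes were above it and their median was -0.02. Between the T cell genotypes within KO hosts, 19 of 34 were higher in the double-KO group, with a median of 0.03, beside 53.2% and 0.01 over all genes. With both KO-host groups averaged, 29 of 34 were above the reference, with a median of 0.22, where 46.5% of all genes were. All comparisons with the reference use the same 4 arrays and are not independent.

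The test was limma's moderated test with Benjamini-Hochberg adjustment over all 15194 genes, with a threshold of 0.05. It called 0 of 34 in each comparison, and of all genes 0.0%. Lgals3, the gene deleted in KO cells, was thus not called either. Its limma adjusted p was 0.103 for the double-KO group against the reference and 0.661 between the T cell genotypes. At an unadjusted p under 0.05, the host-KO group had 7 of 34 higher than the reference (3.62% of all genes) and 0 lower (3.86%). The double-KO group had 8 of 34 higher (4.79% of all genes) and 0 lower (3.67%). Between the T cell genotypes 0 were higher (1.93% of all genes) and 0 lower (1.48%). The average of both KO-host groups had 12 of 34 higher (5.07% of all genes) and 0 lower (5.21%), with limma adjusted p-values of these 12 between 0.291 and 0.484. The counts of 7, 8 and 12 each include Oasl2, which reached the filter only through its higher KO-host arrays.

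In that average the 12 genes were Oasl2, Isg15 and Herc6, described below, and 9 others. Ifit1 was 0.84 (SE 0.35) higher, Trim21 0.69 (SE 0.21), Parp14 0.57 (SE 0.15), Irf9 0.54 (SE 0.16) and Irf7 0.40 (SE 0.15). Ifit2 was 0.39 (SE 0.17) higher, Usp18 0.38 (SE 0.11), Dtx3l 0.33 (SE 0.14) and Ddx58 0.26 (SE 0.10). Without the 2 arrays of narrowest range Trim21 was at 0.34, and with the value range as a covariate at 0.42. With the mean of its rows Irf7 was at 0.12. With the macrophage marker mean as a covariate this average was 1.91 for Ifit1, 0.97 for Irf7 and 0.87 for Irf9. It was 0.81 for Ifit2, 0.62 for Dtx3l and 0.14 for Ddx58. In this order, from Ifit1 to Ddx58, the unadjusted limma p-values were 0.0058, 0.00053, 0.012, 0.016, 0.027 and 0.47, and none passed after adjustment. In the host-KO group alone, the marker covariate gave 0.31 for Oasl2, 0.26 for Usp18 and 0.46 for Parp14. Their differences without it were 0.39, 0.34 and 0.59. With it their unadjusted limma p-values were 0.162, 0.262 and 0.164, so none stayed under 0.05.

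The separation of single arrays was counted as well. Every host-KO array lay above every reference array for 5 of 34 genes (3.57% of all genes) and below for 0 (5.32%). Every double-KO array lay above every reference array for 7 of 34 (2.61% of all genes) and below for 0 (2.41%). Between the T cell genotypes the arrays separated for 0 genes in either direction, beside 2.26% higher and 1.81% lower over all genes. All 7 KO-host arrays lay above all 4 reference arrays for 3 genes, Oasl2, Usp18 and Parp14 (0.856% of all genes), and below for 0 (0.836%). Oasl2, which is also among the 5 and the 7 genes, reached the filter only through its higher KO-host arrays. Its place in these counts is a description and lends them no support.

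**Figure D2:**
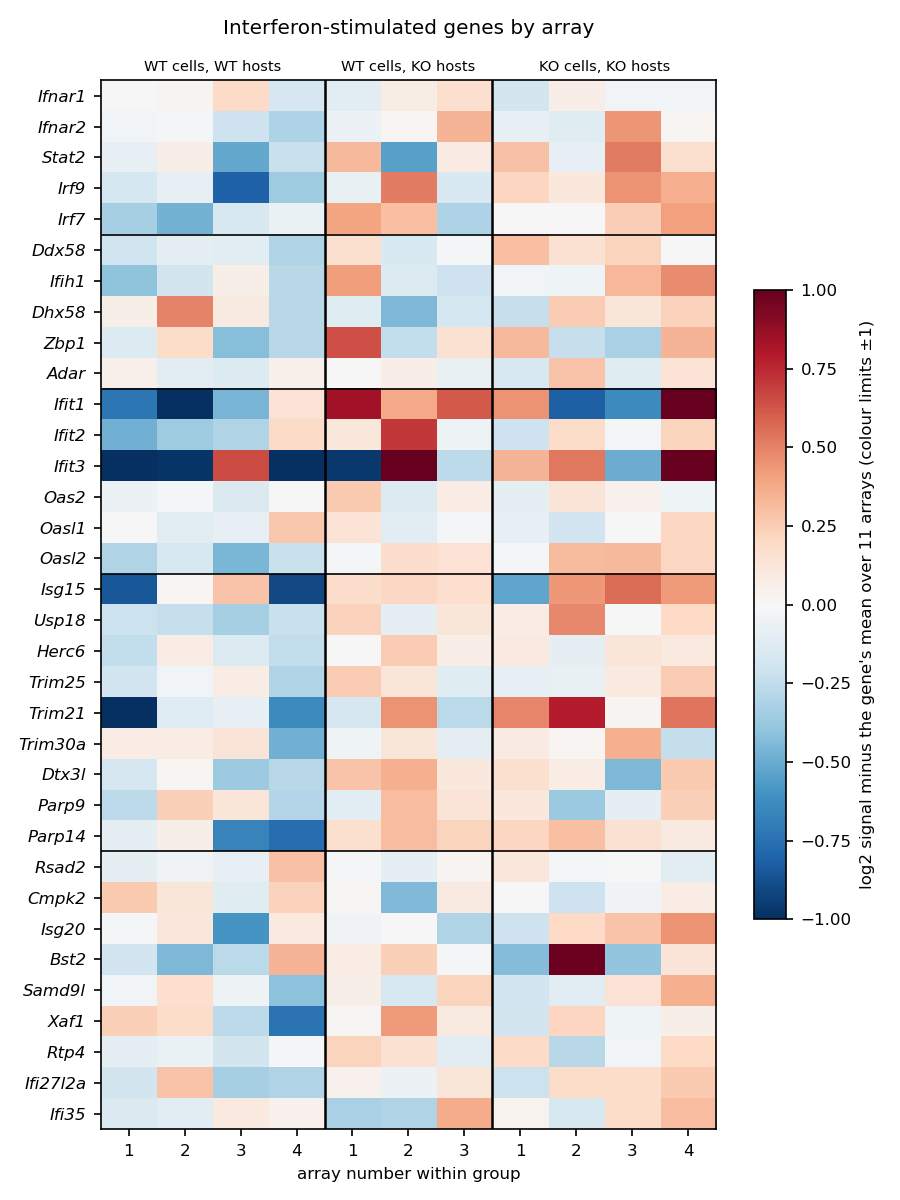
Log2 signal of 34 interferon-stimulated genes in 11 arrays, each gene minus its own mean over the arrays, with colours limited at ±1. Columns are arrays by group, rows are genes by role (receptor and transcription factors, sensors, IFIT and OAS families, ISG15 system and ligases, other effectors). Blue prevails in the 4 arrays from WT hosts, and Oasl2, Usp18 and Parp14 are higher in all 7 arrays from KO hosts than in any of those 4.

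Ifnar1, a chain of the receptor, was at 7.84 ± 0.15 (SD, n = 4) in the reference group, 7.87 ± 0.14 (SD, n = 3) in the host-KO group and 7.78 ± 0.10 (SD, n = 4) in the double-KO group. Its range over the 11 arrays was 0.38, the smallest of the 34 genes. A second row of Ifnar1, with a mean signal of 6.66 and not used by the rule, was 0.64 higher in the double-KO group than in the reference, so the rows of this gene disagree there. Ifnar2 was at 7.96 ± 0.14 (SD, n = 4), 8.20 ± 0.21 (SD, n = 3) and 8.17 ± 0.26 (SD, n = 4) in the same order of groups.

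Irf9, the DNA-binding subunit of ISGF3, acts downstream of the receptor. In the reference group its arrays read 6.83, 6.92, 6.20 and 6.64. In the host-KO group they read 6.93, 7.52 and 6.85, and in the double-KO group 7.22, 7.11, 7.45 and 7.37. All 4 arrays of the double-KO group lay above the WT-host arrays, while 1 of the 3 arrays of the host-KO group lay within them. The log2 difference was 0.64 (SE 0.18) in the double-KO group (limma adjusted p = 0.420) and 0.45 (SE 0.20) for the host-KO group (limma adjusted p = 0.654). Without array 2 of the host-KO group the second difference was 0.24, and with the macrophage marker mean as a covariate it was 0.78.

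The other subunit on the list, Stat2, was 0.41 (SE 0.20) higher in the double-KO group and 0.14 (SE 0.21) higher in the host-KO group, with overlapping arrays in both. Irf7, the transcription factor that amplifies interferon production, read 5.84, 5.70, 6.01 and 6.10 in WT hosts, 6.57, 6.47 and 5.86 in the host-KO group, and 6.17, 6.16, 6.42 and 6.58 in the double-KO group. The 4 arrays of the double-KO group lay above those of WT hosts, by 0.42 on average (SE 0.17; limma adjusted p = 0.558). A second row of Irf7 with a lower mean, 5.06, was -0.01 in that comparison and -0.33 in the host-KO group, so the difference rests on the row of higher signal. With the mean of both rows it was 0.20.

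Sensors of viral nucleic acid included 3 related RNA helicases, Ddx58, Ifih1 and Dhx58. Ddx58, which encodes RIG-I, read 5.74, 5.85, 5.83 and 5.64 in WT hosts, 6.10, 5.79 and 5.93 in the host-KO group, and 6.24, 6.09, 6.17 and 5.95 in the double-KO group. The double-KO group did not overlap with WT hosts, at a difference of 0.34 (SE 0.11; limma adjusted p = 0.469). With the macrophage marker mean as a covariate that difference was 0.22 (0.14 for both KO-host groups averaged), while those of Irf7 and Irf9 became larger, at 0.99 and 0.97. Ifih1, which encodes MDA5, was 0.39 (SE 0.17) higher in the double-KO group (limma adjusted p = 0.585), with overlap, and 0.23 (SE 0.19) higher in the host-KO group. Its difference in the double-KO group was 0.25 without the 2 arrays of narrowest range, 0.24 with the value range as a covariate and 0.64 with the marker covariate. Dhx58, which encodes the related regulator LGP2, went the other way in the host-KO group, at -0.34 (SE 0.18), and was level in the double-KO group, at 0.00 (SE 0.17). Zbp1, a sensor of Z-form nucleic acid, was 0.35 (SE 0.23) and 0.19 (SE 0.22) higher, and Adar, the RNA-editing enzyme, differed by at most 0.07. Arrays of Dhx58, Zbp1 and Adar overlapped between the groups.

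The IFIT genes, whose products bind foreign RNA at ribosomes and on 5′ ends, included Ifit1 and Ifit3, which had the largest spread within groups among the 34 genes. Ifit1 read 4.55, 4.26, 4.80 and 5.42 in WT hosts and 6.11, 5.65 and 5.88 in the host-KO group, with no overlap and a difference of 1.12 (SE 0.43; limma adjusted p = 0.654). In the double-KO group it read 5.72, 4.45, 4.63 and 6.49, so that 2 arrays lay among those of WT hosts. The double-KO group minus the host-KO group was -0.56 (SE 0.43; limma adjusted p = 0.9998), with overlapping arrays. Ifit2 was 0.49 (SE 0.20) higher in the host-KO group (limma adjusted p = 0.654), with overlap, and 0.27 without array 2 of that group. With the macrophage marker mean as a covariate the host-KO differences of Ifit1 and Ifit2 were 2.19 and 0.92.

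Ifit3 spread more than any other listed gene, with a pooled SD within groups of 1.01 that lay at the 99.6th percentile of all genes. It read 4.47, 4.59, 6.22 and 4.50 in WT hosts, 4.60, 6.88 and 5.31 in the host-KO group, and 5.91, 6.10, 5.08 and 7.61 in the double-KO group. The differences from the reference were 0.65 (SE 0.64) and 1.23 (SE 0.59), with overlapping arrays and limma adjusted p-values of 0.756 and 0.600. Its row may also read Ifit3b, a near-identical copy, and a further row that names both genes was not used. Array 3 of the WT hosts, high for Ifit3, was at 4.80 for Ifit1 and 5.16 for Ifit2. The highest reference array was thus array 3 for Ifit3 and array 4 for Ifit1 and Ifit2.

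Oasl2, an oligoadenylate synthetase-like antiviral gene, had the lowest adjusted p of the 34 genes in the double-KO group. It read 4.32, 4.46, 4.16 and 4.40 in WT hosts, 4.61, 4.79 and 4.76 in the host-KO group, and 4.60, 4.93, 4.94 and 4.82 in the double-KO group. Every KO-host array exceeded every WT-host array. The differences were 0.39 (SE 0.12; limma adjusted p = 0.637) and 0.49 (SE 0.11; limma adjusted p = 0.386). Averaged over both KO-host groups it was 0.44 (SE 0.10; limma adjusted p = 0.291). Its pooled SD within groups was 0.13. The signal was low: the reference mean of 4.332 lay below the filter value of 4.334, so Oasl2 reached the filter only through its higher KO-host arrays, and its separation is given as a description. Oas2, which makes the 2-5A activator of RNase L, and the relative Oasl1 were between -0.04 and 0.12 in both comparisons.

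**Figure D3:**
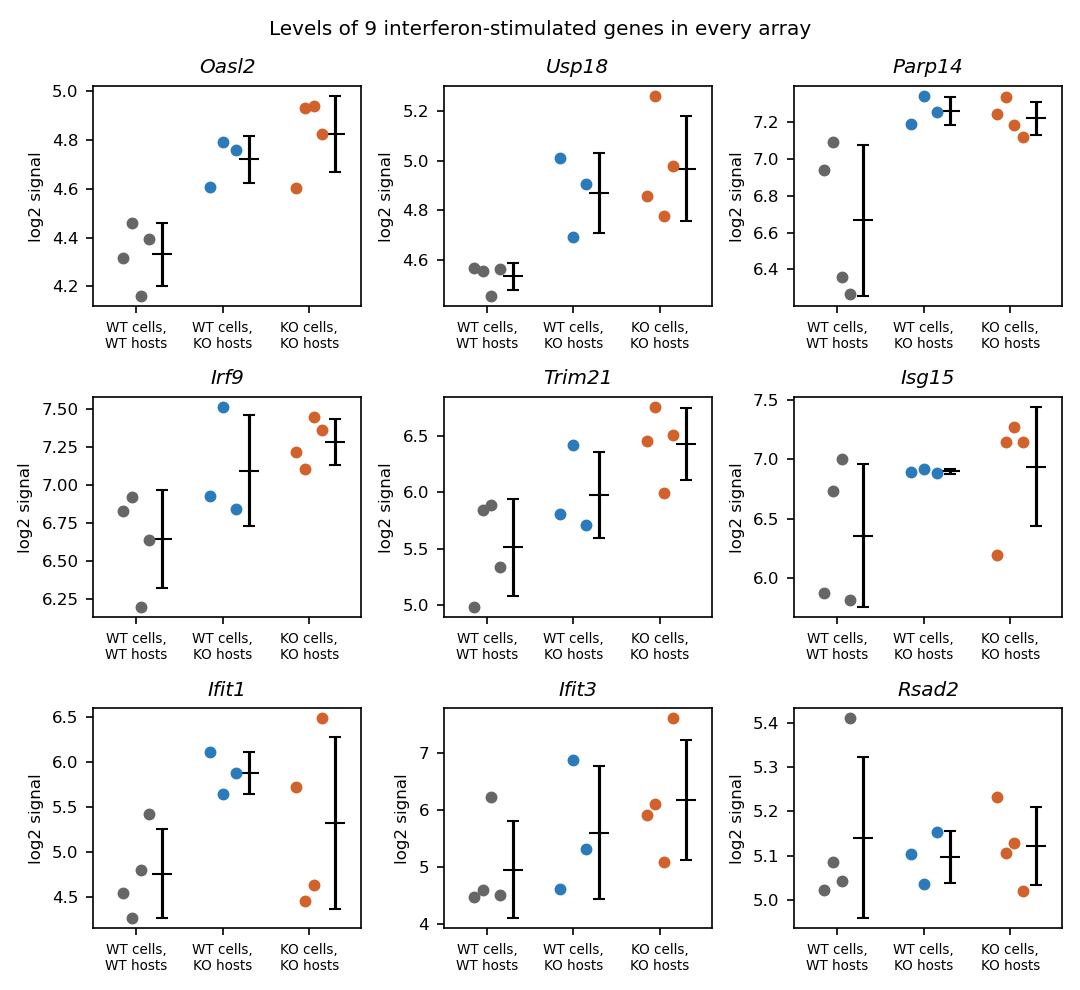
Log2 signal of 9 genes in every array of the 3 groups, with the mean and SD of each group to the right of its points; the vertical scales differ. Oasl2, Usp18 and Parp14 show no overlap between WT and KO hosts, Isg15 is low in 2 of 4 WT-host arrays, and Rsad2 is level.

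The ISG15 system attaches the ubiquitin-like protein ISG15 to other proteins, and its 9 genes with related ligases were all above the WT-host mean in both KO-host groups. Usp18 removes ISG15 and also restrains the interferon receptor. It read 4.57, 4.55, 4.45 and 4.56 in WT hosts, 5.01, 4.69 and 4.91 in the host-KO group, and 4.86, 5.26, 4.78 and 4.98 in the double-KO group. Neither KO-host group overlapped with WT hosts, at differences of 0.34 (SE 0.13; limma adjusted p = 0.654) and 0.43 (SE 0.12; limma adjusted p = 0.412).

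Isg15 itself, with its 3 overlapping ISRE cores, had overlapping arrays. Its arrays read 5.87, 6.74, 7.003 and 5.81 in WT hosts, 6.89, 6.92 and 6.88 in the host-KO group, and 6.19, 7.15, 7.28 and 7.14 in the double-KO group. The low arrays in WT hosts were numbers 1 and 4, the arrays of narrowest range, and the other 2 lay within the range of the KO-host arrays. The mean difference over both KO-host groups was 0.56 (SE 0.26; limma adjusted p = 0.484). It was 0.05 without those 2 arrays, -0.04 with the value range as a covariate and 0.19 with the macrophage marker mean as a covariate.

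Parp14, a mono-ADP-ribosyltransferase, read 6.94, 7.09, 6.36 and 6.27 in WT hosts, 7.19, 7.34 and 7.25 in the host-KO group, and 7.24, 7.33, 7.18 and 7.12 in the double-KO group. The KO-host arrays kept within 7.12 to 7.34, above the more scattered WT-host arrays. Its differences were 0.59 (SE 0.18; limma adjusted p = 0.637) and 0.55 (SE 0.17; limma adjusted p = 0.459). Dtx3l, a ubiquitin ligase, was 0.44 (SE 0.17) higher in the host-KO group without overlap (limma adjusted p = 0.654), but 0.21 (SE 0.15) in the double-KO group, where array 3 read 6.04, the lowest of all 11. With the macrophage marker mean as a covariate Dtx3l was 0.74 higher in the host-KO group. Parp9, its binding partner, was at 0.16 (SE 0.18) and 0.02 (SE 0.17).

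Trim21, a cytosolic antibody receptor and ubiquitin ligase, differed most among the genes without overlap in the double-KO group. It read 4.98, 5.84, 5.89 and 5.33 in WT hosts, 5.81, 6.42 and 5.71 in the host-KO group, and 6.46, 6.76, 6.00 and 6.51 in the double-KO group. The difference for the double-KO group was 0.92 (SE 0.23; limma adjusted p = 0.405), and 0.57 without the 2 arrays of narrowest range, which were also its lowest. A second row of Trim21, of mean signal 4.81, was 0.83 higher in that comparison and 1.01 higher in the host-KO group. Herc6, the main ligase that attaches ISG15 in the mouse, was 0.22 (SE 0.10) higher over both KO-host groups (limma adjusted p = 0.480), 0.11 without those 2 arrays and 0.09 with the value range as a covariate. Trim25, which promotes RIG-I signaling, and Trim30a were between 0.05 and 0.19 higher, with overlap.

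The remaining 9 effectors had overlapping arrays in every comparison. Rsad2, which encodes the antiviral enzyme viperin, was at 5.14 ± 0.18 (SD, n = 4), 5.10 ± 0.06 (SD, n = 3) and 5.12 ± 0.09 (SD, n = 4), and its genomic neighbour Cmpk2, a nucleotide kinase, was at -0.24 (SE 0.15) and -0.17 (SE 0.14) in the host-KO and double-KO groups. Bst2, which encodes the membrane protein tetherin, was 0.24 (SE 0.30) and 0.21 (SE 0.28) higher, and 1 array of the double-KO group at 8.45 gave it the widest spread of this group. Isg20, an exonuclease, was at -0.02 (SE 0.20) in the host-KO group and 0.28 (SE 0.18) in the double-KO group. Xaf1, a proapoptotic protein, was at 0.32 (SE 0.22) and 0.16 (SE 0.20), and its second row, which lay below the filter value, was lower in both groups. Samd9l, Rtp4, Ifi27l2a and Ifi35 were between -0.06 and 0.23, all with overlap.

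**Figure D4:**
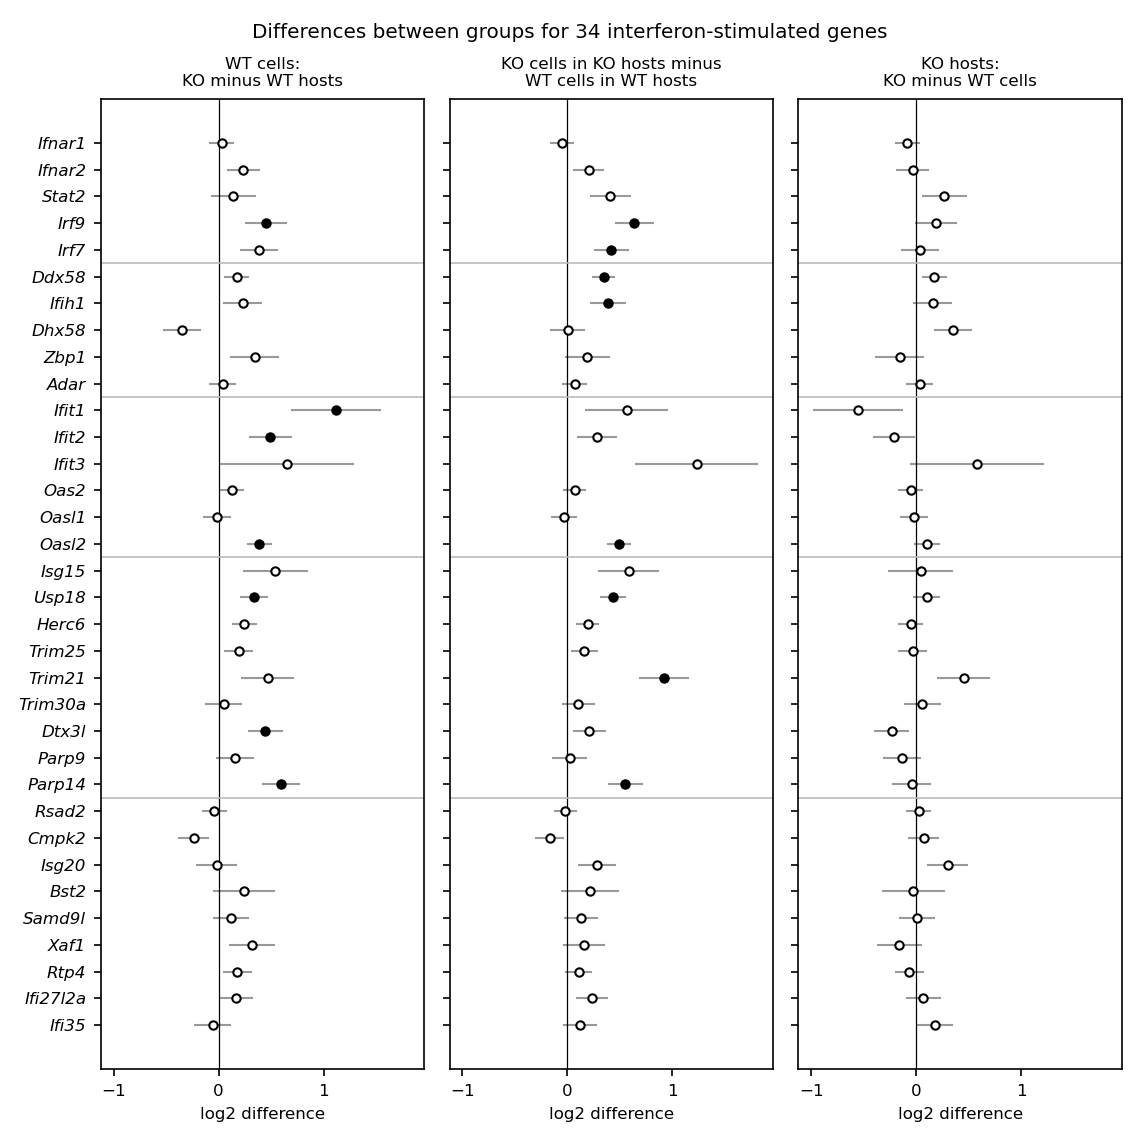
Log2 differences of 34 genes with their SE in the 3 comparisons, with genes in order of role. Filled points have an unadjusted limma p under 0.05, which 7, 8 and 0 genes reach from left to right; none passed after adjustment.

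The arrays differed in how far the list as a whole stood above the WT hosts. Array 4 of the double-KO group had 30 of 34 genes above their own mean over the arrays and 24 above every WT-host array, where 22.3% of all genes were above every WT-host array. In the other 6 KO-host arrays 11 to 17 genes lay above every WT-host array, against 17.2% to 20.8% of all genes. In arrays 1 to 3 of the host-KO group 14, 17 and 11 genes lay above every WT-host array. Their macrophage marker means were 6.79, 6.74 and 7.24. In arrays 1 to 4 of the double-KO group the counts were 13, 13, 17 and 24. The marker means there were 6.89, 7.06, 7.03 and 6.70. Whether count and marker mean are related was not tested. In WT hosts, array 4 was the lowest of all 11 arrays for 9 of the 34 genes (11.5% of all genes) and array 3 for 7 (9.23% of all genes).

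**Figure D5:**
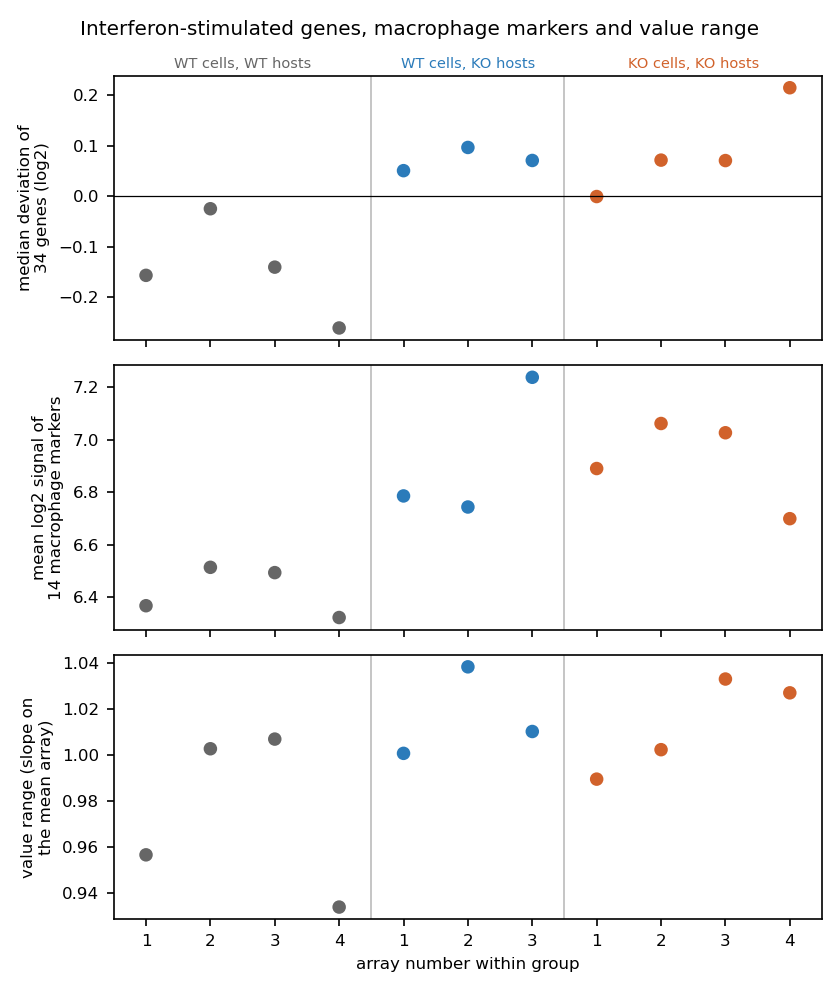
Per array, the median deviation of the 34 genes from their own means (top), the mean log2 signal of 14 macrophage markers (middle) and the value range as the slope on the mean array (bottom). The 4 WT-host arrays are lowest in the top and middle panels, and 2 of them have the lowest slopes.

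The mean of the 14 macrophage markers did not overlap between hosts, so its level and the host genotype cannot be told apart there. Taken singly, 5 of the 14 had all KO-host arrays above all WT-host arrays (0.856% of all genes) and 0 had them below (0.836%). The 14 include Msr1 and Adgre1, which reached the filter only through their higher KO-host arrays. In bulk samples, fewer cells of a type and less RNA per cell cannot be told apart either. With the marker mean as a covariate the median difference of the 34 genes was 0.26 in the host-KO group, with 25 of 34 higher (50.2% of all genes) and 6 higher at an unadjusted p under 0.05 (2.57%). In the double-KO group it was 0.24, with 25 of 34 higher (51.7% of all genes) and 7 at that p (2.84%). Without the 2 arrays of narrowest range the median was 0.13 in the host-KO group, with 27 of 34 higher (47.7% of all genes). At that p 4 were then higher (2.43%) and 1 lower (1.82%). For the double-KO group it was 0.15, with 28 of 34 higher (49.6% of all genes) and 5 at that p (3.09%).

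Beyond these genes, 87 others of the pathway were listed, of which 52 had a row that passed the filter. The 52 include Parp12, whose reference mean of 4.24 lay below the filter value of 4.33. It reached the filter only through its higher KO-host arrays, so its place in the counts of genes above the WT-host mean lends them no support. In the host-KO group 36 of the 52 were above the WT-host mean (45.5% of all genes), with a median of 0.09. At an unadjusted p under 0.05, 4 were higher (3.62% of all genes) and 2 lower (3.86%). In the double-KO group 36 were above it (46.7% of all genes), with a median of 0.08, and 7 were higher (4.79%) and 3 lower (3.67%). None passed after adjustment. Of 18 listed ligands 4 were measured. Ifnb1 was at 5.22, 5.13 and 5.19 in the reference, host-KO and double-KO groups, and Ifna1 at 5.11, 4.94 and 4.87. Ifna14 was -0.33 (SE 0.15) in the host-KO group, at an unadjusted p under 0.05. Ifnz, of the highest mean signal among the measured ligands, went the other way, at 6.39, 6.56 and 6.84 in the same order of groups.

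Of the kinases and brakes, Jak1 and Tyk2, both bound to the receptor, were at 0.11 and 0.24 in the host-KO group and at 0.27 and 0.31 in the double-KO group. Socs1, an inhibitor of these kinases, was at 0.01 and -0.12. The genes named next had an unadjusted p under 0.05 in the groups given. Ifitm3, which blocks viral entry, was 0.97 (SE 0.26) higher in the double-KO group. Rnf213, a large ubiquitin ligase, was 0.31 (SE 0.11) higher in the host-KO group and 0.39 (SE 0.11) in the double-KO group. Pml, the organizer of nuclear bodies, was 0.25 (SE 0.11) and 0.24 (SE 0.10) higher. In the host-KO group Trim34a was 0.30 (SE 0.12) and Lgals3bp, a galectin-binding glycoprotein, 0.25 (SE 0.11) higher. In the double-KO group Ifi204 was 0.63 (SE 0.23), Ube2l6, the conjugating enzyme for ISG15, 0.55 (SE 0.24) and Slfn5 0.28 (SE 0.11) higher. Others were lower, with Ly6e at -0.42 (SE 0.13) in the host-KO group and Slfn1, linked to T cell quiescence, at -0.34 (SE 0.14) in the double-KO group. Ifngr1, a chain of the interferon gamma receptor, was at -0.26 (SE 0.12) in the double-KO group. The adaptor Ticam1, which relays Toll-like receptor signals to interferon genes, was at -0.66 (SE 0.21) in the double-KO group, while the kinase Tbk1 of the same route was at 0.39 (SE 0.15). Between the T cell genotypes within KO hosts, Ly6e was 0.30 (SE 0.13) higher and Trim34a was at -0.26 (SE 0.12) in the double-KO group, 1 gene in each direction (1.93% and 1.48% of all genes).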

How the data were processed

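Biotin-labelled product of amplified RNA was hybridised to 11 arrays, per the labels' protocols. The authors deposited log2 signals for 115830 rows; RMA, Partek and the build mm9 are named in the submitters' processing notes, without versions or order of steps. The values, from 1.27 to 14.4, show the log2 scale. The platform annotation names 1 gene in 25539 rows, several in 2300 and none in the rest. Of 20259 genes, 15194 passed the filter. limma 3.58.1 (R 4.3.3) was fitted to all 11 arrays with group means, without further normalization, and tested on simulated data. No pair of arrays shared more than 21 identical values of 115830. Replicate numbers did not pair the arrays, so no block was used. The genes and lists were chosen with earlier results of these data known, so no list was tested and no p was adjusted over a list. Of the 34 genes, those at an unadjusted p under 0.05 in a comparison were named with their difference and SE, others by values or ranges. Alternatives are given at the end. Sequences are RefSeq's (GRCm38.p6), which is not the build of the arrays' processing.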

Additional observations from a re-analysis of the deposited data

Results flagged for a closer look

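Of 68 groups of 4 arrays examined, 6 held an array whose gap to the nearest other exceeded Dixon's 95% critical share of the group's range, where chance gives about 1 in 20. In the reference group, Ifit3 was high in array 3 at 6.22 (others 4.47 to 4.59), Usp18 was low in array 3 at 4.45 (others 4.55 to 4.57), Trim30a was low in array 4 at 6.97 (others 7.52 to 7.58) and Rsad2 was high in array 4 at 5.41 (others 5.02 to 5.09). In the double-KO group, Isg15 was low in array 1 at 6.19 (others 7.14 to 7.28) and Herc6 was low in array 2 at 4.58 (others 4.77 to 4.79). Groups of 3 arrays were not examined.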

How the results depend on the processing

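In none of the alternatives run did any of the 34 genes (25 with a filter at the 50th percentile) pass limma's adjusted threshold in the 4 contrasts. The median difference of the host-KO group was 0.10 with the value range as a covariate, against 0.21, and 0.14 to 0.27 leaving out single arrays. Isg15, over both KO-host groups, was -0.0358 with that covariate; the cause was not tested. Of all genes, the double-KO group against the reference gave 2 calls after quantile normalization, median centring, a filter at the 50th percentile or the mean of a gene's rows, and 0 to 1 leaving out single arrays (1 without array 4 of the double-KO group). Both KO-host groups against the reference gave 1 call under those 4 settings and with array weights, and 0 to 1 leaving out single arrays (1 without array 2 of the reference). The same replicate numbers did not correlate beyond -0.114 to 0.123, while different numbers reached -0.243 to 0.182. With the replicate number as a block these contrasts gave 3 and 1 calls, and the median differences of the 34 genes were 0.21, 0.21, 0.01 and 0.21 for the host-KO group, the double-KO group, the difference between these groups, and both averaged. The count of the 34 genes at an unadjusted p under 0.05, in either direction, went from 7 to 4 in the host-KO group without its array 1 or with the stricter filter, and from 8 to 5 in the double-KO group without arrays 1 and 4 of the reference or with that filter, and from 12 to 7 over both KO-host groups without array 1 or without arrays 1 and 4 of the reference, to 6 with the macrophage marker mean and to 4 with the value range as covariates. Between the T cell genotypes it was 0 to 2. A fit on only the groups compared was not run for the averaged contrast, which uses all 3. The number of arrays and the low signal of genes near the filter limit the precision.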
